A study of Mus musculus with 12 samples.

Results

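The genes of the T-cell co-receptors CD4 and CD8 and of 2 transcription factors that govern them were followed through 12 Affymetrix Mouse Genome 430 2.0 arrays. The genes are Cd4, Cd8a and Cd8b1, which encode the co-receptor chains, Zbtb7b, which encodes ThPOK, and Runx3. They were taken by symbol from the annotation of the array: every probe set annotated to 1 gene only whose gene was one of the 5 was included, which gave 12 probe sets. Cd8a had 5 of these, Cd4, Zbtb7b and Runx3 had 2 each, and Cd8b1 had 1. The array represented 18193 genes in all by such probe sets, of which 15420, with all 5 among them, were bright enough to be tested.

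Each of 4 groups held 3 arrays. In the leukaemia groups, GFP+ cells of Notch1-driven T-cell acute lymphoblastic leukaemia were sorted from the bone marrow of recipient mice once over 50% of the white cells in blood were GFP+, and the leukaemias were either wild type or deleted for Mbd2, the gene of a protein that binds methylated CpG in DNA. In the thymocyte groups, CD4+CD8+ cells were sorted from the thymus of wild-type or Mbd2-deleted mice at steady state. The labels name neither the Notch1 construct nor the age or sex of the mice, nor how many donors stood behind the leukaemias, and they do not say whether the deletion was in the haematopoietic cells alone. Because the sort of the thymocytes read CD4 and CD8 protein, their levels of Cd4, Cd8a and Cd8b1 were measured in cells chosen for those proteins, whereas the leukaemia cells were sorted on GFP with no reference to these proteins.

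CD4 and CD8 are surface proteins that bind MHC class II and class I molecules beside the T-cell receptor and bring the kinase LCK to it. Early thymocytes carry neither, those that pass the pre-T-cell-receptor checkpoint carry both, and each positively selected cell keeps one. RUNX proteins act on a silencer within Cd4 and on enhancers of the Cd8 genes, RUNX3 in cells that become cytotoxic, while ThPOK holds the helper programme and opposes RUNX3.

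To show the sequence next to which these genes start, the 250 bases before the annotated start of Cd8a and of Runx3 are given, since a protein that binds methylated CpG is absent from one genotype and since RUNX factors are among the regulators. They come from a RefSeq promoter table of build GRCm38.p6 and are written 5′ to 3′ on the strand of the gene, with each CpG and each RUNX motif in capitals. The RUNX motif was searched as TGTGGT or TGCGGT on both strands. Its reverse strand reads ACCACA or ACCGCA, and the second of these and TGCGGT hold a CpG themselves. The Cd8a window is chr6:71373177-71373426 (+), the window of the first Runx3 start is chr4:135120395-135120644 (+) and that of the second Runx3 start is chr4:135152295-135152544 (+).
Cd8a: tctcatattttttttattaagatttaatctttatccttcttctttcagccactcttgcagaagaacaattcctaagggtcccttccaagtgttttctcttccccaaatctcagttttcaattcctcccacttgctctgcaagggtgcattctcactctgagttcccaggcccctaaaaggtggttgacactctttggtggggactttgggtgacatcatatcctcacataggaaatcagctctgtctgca
Runx3 first start: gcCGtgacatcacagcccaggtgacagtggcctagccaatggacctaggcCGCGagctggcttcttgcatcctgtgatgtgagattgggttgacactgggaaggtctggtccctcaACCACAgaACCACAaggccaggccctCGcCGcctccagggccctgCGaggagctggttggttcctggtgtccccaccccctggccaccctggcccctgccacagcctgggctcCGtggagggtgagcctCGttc
Runx3 second start: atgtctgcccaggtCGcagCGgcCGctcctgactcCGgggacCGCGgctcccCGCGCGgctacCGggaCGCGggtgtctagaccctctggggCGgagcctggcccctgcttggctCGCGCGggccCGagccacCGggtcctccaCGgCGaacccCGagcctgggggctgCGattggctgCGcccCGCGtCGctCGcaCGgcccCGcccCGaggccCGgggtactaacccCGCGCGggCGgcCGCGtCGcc
The Cd8a window held 0 CpG and 0 RUNX motifs. Among 32851 windows of this length in the table the median was 6 CpG and 7.87% held none. The first Runx3 window held 8 CpG and 2 RUNX motifs, at 134 and 126 bases before the start. A RUNX motif was present in 18.6% of all windows and 2 or more in 2.01%. The second Runx3 window held 38 CpG, a number reached by 1.88% of windows, and 0 RUNX motifs. The 2 Zbtb7b windows, chr3:89387672-89387921 (−) and chr3:89393379-89393628 (−), held 5 and 7 CpG and 1 and 0 RUNX motifs. The arrays measured neither methylation nor binding, so these counts describe the letters only.

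Mbd2 itself was read first as a check of the labels. Its brighter probe set gave 820 ± 119 in wild-type and 54.4 ± 12.4 in deleted leukaemias (mean intensity ± SD, n = 3), and 1136 ± 206 and 72.1 ± 10.7 in the thymocytes. No array went against its label. The cells also carried markers of the T lineage: Cd3e lay between 1910 and 3048 over the leukaemia arrays and between 3433 and 4489 over the thymocyte arrays. Rag1, a recombinase gene of CD4+CD8+ thymocytes, lay between 8889 and 12588 in both thymocyte groups, and between 9.78 and 42.3 in both leukaemia groups, where the brightest control probe set with no mouse target gave 35.3. Other T-lineage genes set the leukaemia genotypes apart. Ptcra ran from 1380 to 1737 in wild-type and 25.7 to 40.7 in deleted leukaemias, and Thy1 from 5970 to 6296 and 958 to 1517. Dntt was higher in deleted leukaemias, at 2987 to 4733 against 830 to 1682. Cd3d, Cd3e, Cd3g and Themis overlapped, and Rag2 was under the control probe set in both. The part of these differences in the co-receptor results was not tested. A pair of technical features crossed the groups. Control transcripts of the kind added before labelling gave signal on 5 arrays (wild-type leukaemia 1 and 2, deleted leukaemia 1, wild-type thymocyte 1 and 2) and on none of the other 7. The ratio of the 3′ to the 5′ Gapdh probe set, which rises as RNA breaks down, ran from 0.964 to 3.68.

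Cd4, whose product binds MHC class II, fell into 3 ranges. Wild-type leukaemias gave 253, 300 and 260, deleted leukaemias 92.2, 91.8 and 94.2, wild-type thymocytes 1654, 1886 and 1351, and deleted thymocytes 1376, 1844 and 1285. The 3 deleted leukaemias were the lowest arrays and lay close together, all wild-type leukaemias stood between them and the thymocytes, and the thymocyte genotypes overlapped. The order over group means was wild-type thymocytes (1630 ± 268), deleted thymocytes (1502 ± 300), wild-type leukaemias (271 ± 25.3) and deleted leukaemias (92.7 ± 1.24), of which only the first neighbours did not differ beyond their spread. The dimmer Cd4 probe set, 1427779_a_at, kept this separation at 36.7 ± 13.6 in wild-type leukaemias, 13.5 ± 0.292 in deleted leukaemias, 187 ± 51.5 in wild-type thymocytes and 244 ± 115 in deleted thymocytes. On it 2 of 3 wild-type and all 3 deleted leukaemias lay under the 35.3 of the control probe set.

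Cd8a, the alpha chain that can pair with itself or with the beta chain, was read by 5 probe sets, of which 1444078_at was the brightest on average. It gave 3082, 2982 and 2123 in wild-type leukaemias and 388, 135 and 132 in deleted leukaemias. In wild-type thymocytes it gave 6413, 7295 and 4844, and in deleted thymocytes 5233, 7607 and 6910. Deleted leukaemia 1 stood above the other deleted leukaemias on this probe set, yet remained well under every wild-type leukaemia. A further probe set, 1425335_at, put the same array at 159, near the 118 and 145 of the other deleted leukaemias. Its wild-type leukaemias gave 2751, 2402 and 1995, and its thymocytes ran from 4458 to 6522. The remaining probe sets kept the separation of the leukaemias, at 531 to 862 against 34.9 to 41.2 (1440811_x_at), 126 to 162 against 32.6 to 41.8 (1440164_x_at) and 893 to 3658 against 49.8 to 209 (1451673_at).

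Cd8b1, the beta chain that makes the alpha-beta co-receptor of thymocytes and conventional CD8 cells, showed the widest range. The wild-type leukaemias gave 4631, 3825 and 2442, and the deleted leukaemias 101, 42.4 and 43.9. Thymocytes gave 11141, 10929 and 6670 in the wild type and 5262, 8797 and 10746 with Mbd2 deleted. Deleted leukaemias 2 and 3 were close to the control probe set with no target, so their levels are near the lower limit of the array, and deleted leukaemia 1 was again the highest of its group. The order of the group means was wild-type thymocytes (9580 ± 2523), deleted thymocytes (8268 ± 2780), wild-type leukaemias (3632 ± 1107) and deleted leukaemias (62.3 ± 33.2), with the thymocyte genotypes overlapping.

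**Figure D1:**
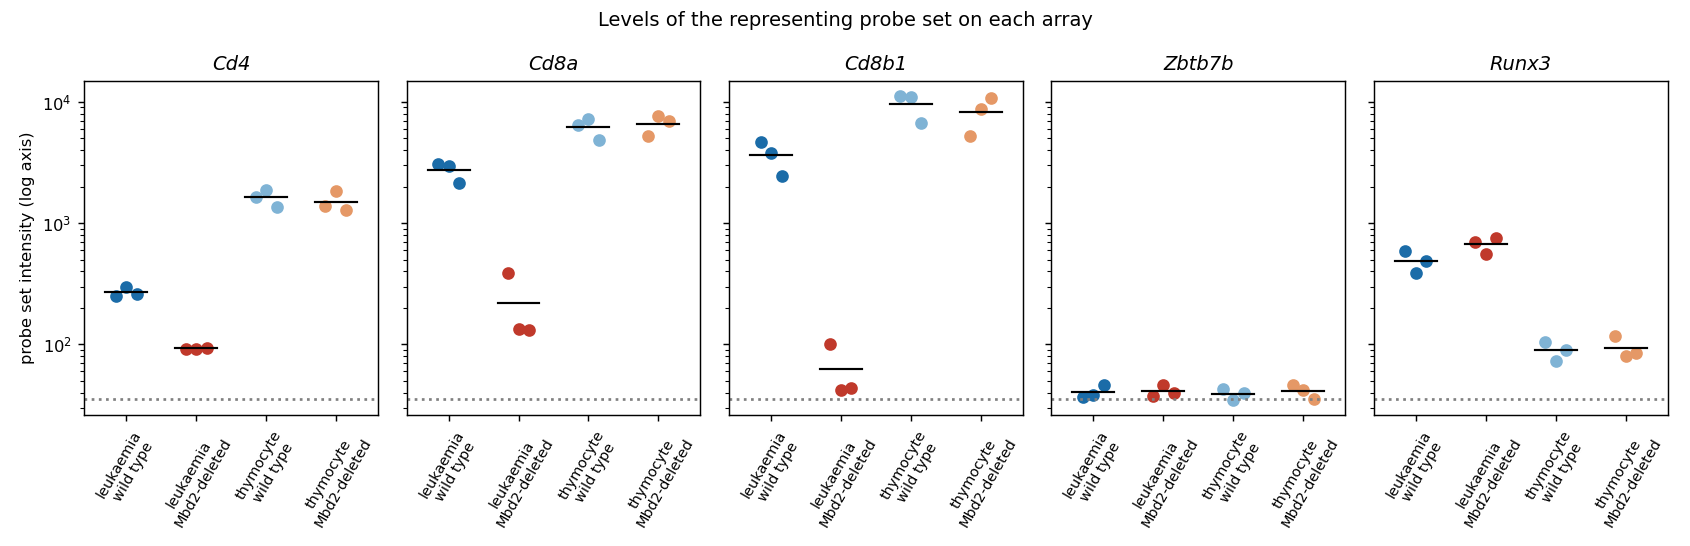
Intensity of the brightest probe set of each gene on each array (points, log axis) by group, with the group mean (line) and the brightest control probe set with no target, 35.3 (dotted). The deleted leukaemias are lowest for Cd4, Cd8a and Cd8b1, Zbtb7b lies near the dotted line in every group, and Runx3 is brighter in both leukaemia groups than in the thymocytes.

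The lineage factors had other patterns. Zbtb7b gave 37.1, 37.9 and 46.6 in wild-type leukaemias and 37.6, 46.2 and 39.5 in deleted leukaemias. It gave 42.8, 34.7 and 39.4 in wild-type thymocytes and 45.8, 42.1 and 35.7 in deleted thymocytes. These values straddle or lie just above the 35.3 of the control probe set, and the second probe set, 1420663_at, was dimmer still (22.1 to 42.7 over all arrays). A level of this gene above background was thus not measurable in any group, and the 4 groups overlapped throughout.

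Runx3 gave 588, 386 and 488 in wild-type leukaemias, 703, 553 and 747 in deleted leukaemias, 105, 73.0 and 89.3 in wild-type thymocytes and 117, 80.0 and 85.4 in deleted thymocytes (1440275_at). Every leukaemia array was above every thymocyte array. The deleted leukaemias (667 ± 102) overlapped the wild-type leukaemias (487 ± 101) through 1 array on each side, and the thymocyte groups overlapped. The second probe set, 1421467_at, ran only from 29.4 to 59.8 over all arrays, with the leukaemias of a genotype again above the thymocytes of that genotype.

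Deletion of Mbd2 in the leukaemias went with lower transcripts of all 3 co-receptor chains and with no passing change of either factor. Cd8b1 fell (log2 difference −5.57, standard error SE 0.34, adjusted p = 9.88e-05), as did Cd8a (−3.70, SE 0.40, adjusted p = 0.00113) and Cd4 (−1.39, SE 0.10, adjusted p = 0.000199), all by limma with Benjamini-Hochberg adjustment over the 15420 genes. Thus 3 of 5 genes fell, against a share of 6.98% of all genes tested, and the groups did not overlap for these 3, as was so for 33.4% of all genes. In absolute size the Cd8b1 difference was exceeded by 0.0519% of the genes tested, that of Cd8a by 0.415% and that of Cd4 by 4.69%. Runx3 differed by 0.45 (SE 0.18, adjusted p = 0.162) and Zbtb7b by 0.02 (SE 0.11, adjusted p = 0.953), neither passing. At the level of probe sets 8 of the 12 fell, against 5.26% of 28372 probe sets, and the 4 that did not pass were those of Zbtb7b and Runx3.

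In a bulk sample, fewer cells with a transcript and less of it per cell cannot be told apart. With the replicate number as a block, a pairing that the labels do not state, the Runx3 difference of 0.45 passed (adjusted p = 0.0324). With array weights it was 0.63 (adjusted p = 0.0462). Among the arrays with added-control signal only, the differences were −1.43 for Cd4, −2.92 for Cd8a and −5.18 for Cd8b1. Among those without it they were −1.34 (adjusted p = 0.130), −3.84 (adjusted p = 0.0501) and −5.38 (adjusted p = 0.0501). In both subsets 1 group keeps a single array, which is assumed to vary like the rest. In the subset without signal 0 of all genes passed. Xist lay between 3846 and 4819 in wild-type and between 32.1 and 40.8 in deleted leukaemias, and the Y-linked Eif2s3y between 7.01 and 7.59 and between 472 and 574, so the sex these genes mark and the genotype cannot be told apart in the leukaemias. Both thymocyte groups resembled the deleted leukaemias in these 2 genes. The sex they mark thus cannot be told apart from cell type between the wild-type groups either. The same holds for the change of the genotype effect between leukaemias and thymocytes.

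In the thymocytes, none of the 5 genes and 0 of the 12 probe sets differed past the threshold between genotypes by limma, where 0.0324% of all genes and 0.0106% of all probe sets did. The 5 log2 differences were −0.12 for Cd4 (SE 0.18), 0.09 for Cd8a (SE 0.20), −0.24 for Cd8b1 (SE 0.30), 0.06 for Zbtb7b (SE 0.11) and 0.06 for Runx3 (SE 0.17), with adjusted p-values from 0.987 to 0.991. The unadjusted p-values of the 5 genes ran from 0.464 to 0.712, so 0 were under 0.05. Because the cells were gated as CD4+CD8+ in both genotypes, cells that had lost either protein would not have been collected. The change of the genotype effect between leukaemias and thymocytes, fitted over all 12 arrays, passed for Cd8b1 (−5.34, SE 0.50, adjusted p = 2.76e-05), Cd8a (−3.80, SE 0.49, adjusted p = 0.000301) and Cd4 (−1.27, SE 0.21, adjusted p = 0.00193). It did not pass for Runx3 (0.39, SE 0.26, adjusted p = 0.443) or Zbtb7b (−0.04, SE 0.15, adjusted p = 0.916). Effects that moved this way, lower in leukaemia than in thymocytes, were called for 4.74% of all genes and the opposite way for 7.86%. Of the probe sets 7 of 12 passed, all in this direction, against 3.38% of all probe sets; of the 8 on co-receptor genes the dimmer one of Cd4 did not (−1.10, adjusted p = 0.142).

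Wild-type leukaemias differed from wild-type thymocytes in 4 of the 5 genes. Cd4 was lower (log2 −2.51, SE 0.15, adjusted p = 4.4e-05), and so were Cd8b1 (−1.41, SE 0.29, adjusted p = 0.00851) and Cd8a (−1.17, SE 0.20, adjusted p = 0.00405), whereas Runx3 was higher (2.25, SE 0.18, adjusted p = 0.000151). Zbtb7b differed by 0.04 (SE 0.11, adjusted p = 0.846). Lower calls made up 14.2% and higher calls 19.7% of all genes in this contrast, and the groups did not overlap for 45.7%. The gate on CD4 and CD8 protein bears on the 3 co-receptor genes here, and its part was not tested. The gate also limits the thymocytes to CD4+CD8+ cells, and its part in the Runx3 difference was not tested either. Xist and Eif2s3y set the wild-type leukaemias apart from the thymocytes as well. Cell type and the sex these genes mark thus cannot be told apart here.

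Between deleted leukaemias and deleted thymocytes the same 4 genes passed in the same directions. Cd8b1 differed by −6.74 (SE 0.35, adjusted p = 1.81e-05), Cd8a by −4.97 (SE 0.39, adjusted p = 0.000119), Cd4 by −3.79 (SE 0.15, adjusted p = 5.9e-06) and Runx3 by 2.64 (SE 0.17, adjusted p = 4.9e-05). Zbtb7b differed by 0.00 (SE 0.12, adjusted p = 0.994). The dimmer Runx3 probe set, 1421467_at, again did not pass (0.28, SE 0.13, adjusted p = 0.180). Lower calls made up 11% and higher calls 18.5% of all genes. This comparison shares its deleted leukaemias with the contrast of leukaemia genotypes, so the values are given side by side and not as separate support.

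**Figure D2:**
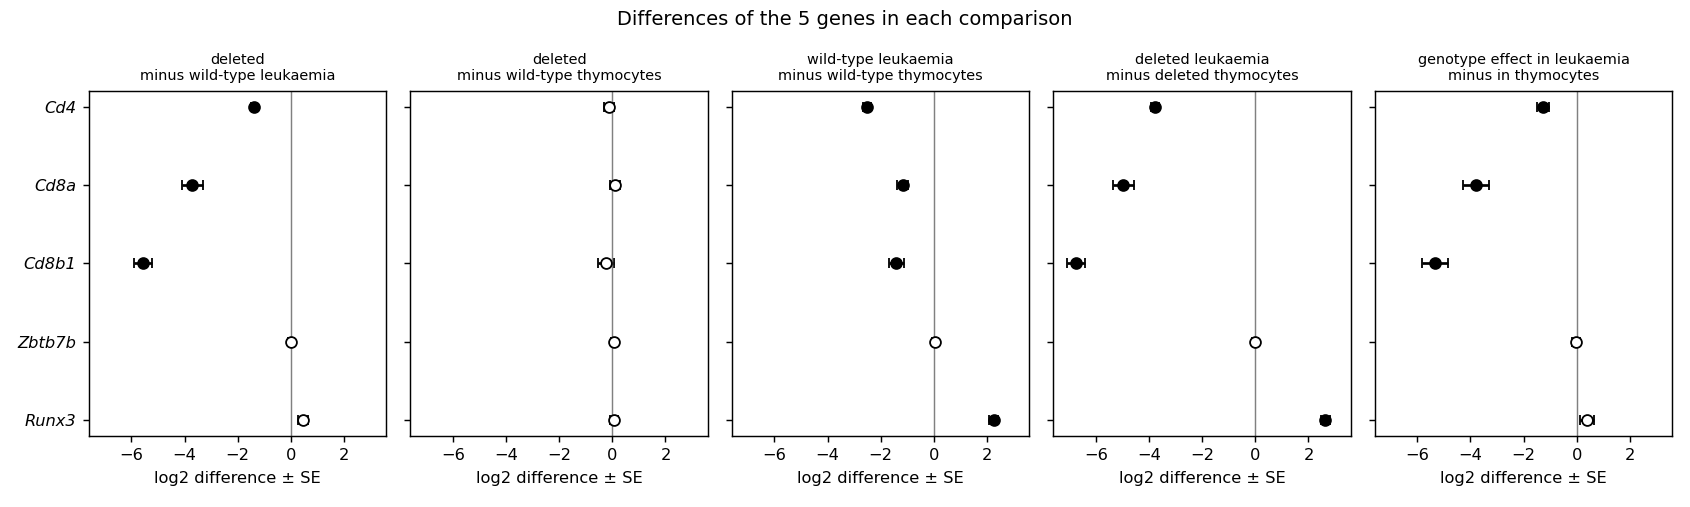
Log2 difference (point) and standard error (bar) of the 5 genes in the 5 comparisons; filled points have an adjusted p under 0.05. The 3 co-receptor genes are filled and left of 0 in every panel except that of the thymocyte genotypes, and Runx3 is filled and right of 0 in both comparisons of leukaemia with thymocytes.

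Log2 ratios of the co-receptor genes within each array are given as a description, since their tests could not pass. Cd8b1 over Cd8a was 0.59, 0.36 and 0.20 in wild-type leukaemias and −1.79, −1.37 and −1.30 in deleted leukaemias, a difference of −1.87. Cd4 over Cd8a was −3.53, −3.25 and −2.96 in wild-type and −1.90, −0.48 and −0.42 in deleted leukaemias, a difference of 2.31. No array of one genotype reached into the other for either ratio. Both had an exact two-sided permutation p of 0.1, the smallest that 3 against 3 arrays allow, and an adjusted p of 0.171 over the 12 ratio tests made, so neither could pass. The ratios set single probe sets against each other, and the 5 Cd8a probe sets themselves differed by −4.46 to −1.59 between the leukaemia genotypes, a wider spread than either ratio difference. The Cd8b1 to Cd8a difference was −1.45 with 64 in place of 16 added before the logarithm. In the thymocytes neither ratio separated the genotypes (−0.33 and −0.21, exact p = 0.3 for each). The sign of such a ratio within a group has no meaning across probe sets.

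The Cd8a probe sets did not vary alike with the Gapdh ratio. On 1451673_at the thymocyte arrays fell into 6373, 6583 and 6456, where the Gapdh ratio was 1.08, 1.14 and 1.12, and 2041, 1466 and 2317, where it was 3.68, 3.33 and 2.10. Its leukaemia arrays ran the same way, from 3658 and 3379 at ratios of 0.969 and 1.02 to 893 at 2.48 in the wild type, and from 209 at 0.964 to 56.1 and 49.8 at 2.00 and 2.98 with Mbd2 deleted. Arrays of low and of high ratio thus stood apart on this probe set within each of the 4 groups, and the part of RNA quality in its values was not tested. The probe set did not separate wild-type leukaemias from wild-type thymocytes (−0.98, SE 0.67, adjusted p = 0.341), while the other 4 Cd8a probe sets did, by −1.34 to −0.74, in a contrast where 13.6% of all probe sets were lower. In leukaemia it fell with Mbd2 deletion (−4.46, SE 0.68, adjusted p = 0.00719). With the Gapdh ratio as a covariate the leukaemia genotype differences were −1.39 for Cd4, −3.42 for Cd8a and −5.32 for Cd8b1. Restricted to arrays with a ratio under 2, the Cd4 change of effect between cell types was −0.97 (adjusted p = 0.0637). Each deleted group keeps 1 array there, which is assumed to vary like the rest. Neither a pass nor a miss in this subset shows whether a call is stable.

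**Figure D3:**
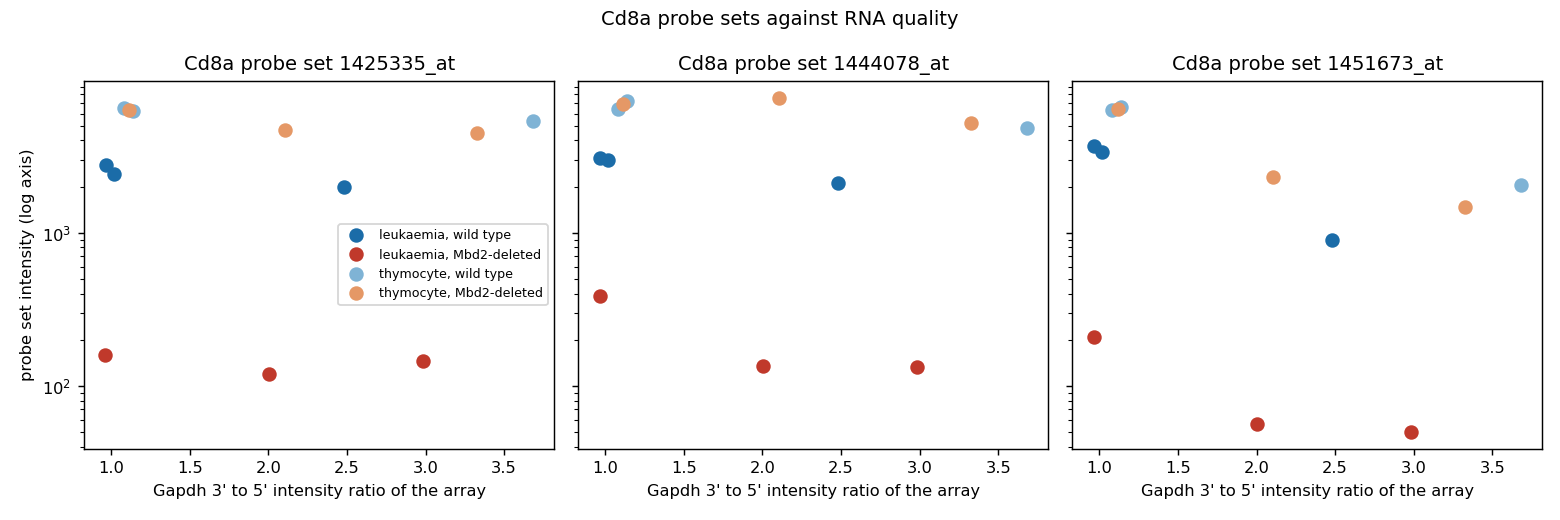
Intensity of 3 Cd8a probe sets on each array (log axis) against the Gapdh 3′ to 5′ ratio of that array, coloured by group. On 1451673_at arrays with a ratio of 2.00 or more lie below those near 1 within each group, from 6583 to 2041 in wild-type thymocytes, whereas the deleted leukaemias are lowest on all 3 probe sets.

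Across the 12 arrays the 2 CD8 chains followed each other, with a Pearson r of 0.99 for Cd8a and Cd8b1, and of 0.88 after group means were taken off. Cd4 followed Cd8a at 0.90 and Cd8b1 at 0.88, and at 0.32 and 0.27 without the group means. Runx3 ran opposite to Cd4 (r = −0.97 and −0.46). These are descriptions over arrays that fall into 4 groups and differ in their Gapdh ratio (0.964 to 3.68), and no test was made of them. The part of RNA quality in these correlations was not tested.

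The genes with the pattern most like each of the 5 were found by the highest r over the 12 arrays. Beside each other, Cd8a had Septin4 and Nsg2 (r = 0.99 for both) and Cd8b1 had Ehhadh, a peroxisomal enzyme gene, and Ctsl, a lysosomal protease gene (r = 0.99 for both). Ctsl gave 651, 572 and 403 in wild-type leukaemias, 30.1, 18 and 17.2 in deleted leukaemias and 1157 to 2541 in thymocytes. For Cd4 they were Tiparp, Tspan6 and Ppm1h (r = 0.99 for each). With group means off their r was 0.11, 0.53 and 0.25, while the genes most like Cd8a, Cd8b1 and Runx3 kept 0.75 to 0.93. Tiparp, which encodes an ADP-ribosyltransferase, gave 109, 121 and 121 in wild-type leukaemias, 19.4, 27.0 and 23.5 in deleted leukaemias and 735 to 1036 in thymocytes, the same order of groups as Cd4. For Runx3 they were Cd160, Hip1r and Agpat2 (r = 0.99 for each). Cd160, a receptor gene of cytotoxic lymphocytes, gave 134 to 201 in wild-type leukaemias, 159 to 228 in deleted leukaemias and 24.4 to 45.7 in thymocytes, and was like Runx3 also with group means off (r = 0.93). For Zbtb7b the nearest were Pde8b, Gpr50 and Cited1 at r of 0.87, 0.87 and 0.86, with Pde8b and Cited1 under 20 on every array, so this likeness is between dim signals.

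RUNX proteins act with the subunit CBFB and with Groucho-type co-repressors. These partners and Runx1 itself made up a list of which 6 genes were tested. Of the 6, 2 rose with Mbd2 deletion in leukaemia, 0 fell and 4 did not pass. The median log2 difference was 0.15 beside −0.06 for all genes. Higher calls made up 9.19% of all genes in this comparison. Tle4, a Groucho-type co-repressor gene, went from 280, 223 and 193 to 744, 774 and 467 (log2 1.43, adjusted p = 0.00598). Runx1, which acts on Cd4 and Cd8 in immature thymocytes, went from 730, 897 and 770 to 1403, 1018 and 1683 (log2 0.74, adjusted p = 0.0445). Both separated the genotypes, as 33.4% of all genes did. The Runx1 call was lost when any one of 5 of the 6 arrays was left out (adjusted p from 0.0838 to 0.14). In wild-type leukaemias Runx1 was below wild-type thymocytes (−0.62, adjusted p = 0.0151), the opposite direction to Runx3. The subunit gene Cbfb did not pass in leukaemia (0.29, adjusted p = 0.215).

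Further regulators of the co-receptor loci split in leukaemia. Of 25 tested, 4 rose, 4 fell and 17 did not pass, with a median of −0.08, where 9.19% of all genes rose and 6.98% fell. Gata3, the factor of early T and helper cells that acts upstream of ThPOK, went from 550, 517 and 535 to 959, 1532 and 1310 (log2 1.2, adjusted p = 0.00426). Tox, needed for the CD4 lineage in the thymus, went from 195, 200 and 159 to 381, 343 and 435 (log2 1.00, adjusted p = 0.00293). In the other direction the chromatin organizer gene Satb1 went from 4886, 4806 and 5764 to 2479, 1645 and 1987 (log2 −1.35, adjusted p = 0.00219), and Ikzf3, the Aiolos gene, from 1582, 1481 and 1590 to 333, 533 and 662 (log2 −1.63, adjusted p = 0.00412). Each of these 4, taken by p, separated the genotypes on every array, as 33.4% of all genes did. Myb (0.60) and Tcf12 (0.73) also rose and Bcl6 (−0.74) and Hdac1 (−0.38) also fell, with adjusted p from 0.015 to 0.0478. Leaving out 1 array ended each of these 4 calls, for Myb only wild-type array 2 (adjusted p = 0.0681) and for the others any of 4 or 5 arrays (adjusted p from 0.0539 to 0.159). The change of effect against thymocytes passed for Gata3 (1.01, adjusted p = 0.0163), Tox (0.90, adjusted p = 0.0151), Satb1 (−1.32, adjusted p = 0.000857) and Ikzf3 (−1.91, adjusted p = 0.00276). It did not pass on the arrays without added-control signal for Gata3 (1.36, adjusted p = 0.0895), Tox (0.89, adjusted p = 0.253) and Ikzf3 (−1.87, adjusted p = 0.0555), nor on those with a Gapdh ratio under 2 for Gata3 (0.43, adjusted p = 0.317) and Satb1 (−0.90, adjusted p = 0.0535).

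In wild-type leukaemias against wild-type thymocytes 3 of these 25 genes were higher and 8 lower, beside 19.7% and 14.2% of all genes. Bcl6 (−3.34, adjusted p = 6.18e-05), Bcl11b (−1.58, adjusted p = 7.57e-05) and Satb1 (−1.17, adjusted p = 0.000323) were lower, whereas Tox2 was higher (3.18, adjusted p = 0.000145). Bcl6 and Bcl11b encode zinc finger repressors, the second of which secures T-cell identity. Bcl6, Bcl11b and Tox2 were chosen after their values were seen.

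Signals from the IL-7 receptor through STAT5 bear on Runx3 and Cd8 in maturing thymocytes. Of 7 genes tested 3 rose in deleted leukaemias, 0 fell and 4 did not pass, with a median of 0.71, beside 9.19% of all genes higher and 6.98% lower. Il7r went from 19.7, 18.5 and 24.3, below the control probe set, to 194, 227 and 77.4 (log2 2.19, adjusted p = 0.00598). Over the alternatives tried the Il7r difference ran from 1.37 to 2.80. Stat5a went from 470, 414 and 430 to 1021, 1220 and 1142 (log2 1.33, adjusted p = 0.000337), and the kinase gene Jak1 from 1211, 920 and 740 to 1785, 2338 and 1613 (log2 1.00, adjusted p = 0.0217). All 3 separated the genotypes, as 33.4% of all genes did. Jak1 lost its call without wild-type array 2 (adjusted p = 0.09) or deleted array 1 or 2 (adjusted p = 0.0509 and 0.0583). The 3 genes also changed their effect against the thymocytes (Il7r 2.69, Stat5a 1.91, Jak1 1.62, adjusted p from 7.72e-06 to 0.00743), though on the arrays without added-control signal Il7r (1.96, adjusted p = 0.246) and Jak1 (1.52, adjusted p = 0.112) did not pass. In wild-type leukaemias against wild-type thymocytes 0 of the 7 were higher and 5 lower, beside 19.7% and 14.2% of all genes, and Il7r was among the 5 (−1.49, adjusted p = 0.00408).

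Genes of the receptor complex beside which the co-receptors act did not pass in leukaemia (0 of 7 in either direction, median 0.24). Over all genes 9.19% rose and 6.98% fell, so 0 on so short a list says little. The nearest to the threshold were the kinase gene Zap70 (0.54, adjusted p = 0.168) and the co-stimulatory receptor gene Cd28 (0.54, adjusted p = 0.19), both of which passed with the replicate number as a block (adjusted p = 0.0189 and 0.0111). Of genes that follow positive selection, 0 of 8 rose and 1 fell (median 0.04), against 9.19% and 6.98% of all genes. This was S1pr1, the receptor that lets cells leave the thymus, which went from 288, 111 and 152 to 65.5, 78.6 and 55.3 (log2 −1.19, adjusted p = 0.0448), a call lost without wild-type array 3 or any one deleted array (adjusted p from 0.0756 to 0.101). Egr2, a target of receptor signalling, differed by 0.50 (adjusted p = 0.0523) and passed with the block (adjusted p = 0.0434).

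Genes of the CD8 and CD4 lineages did not move as blocks. Of 9 CD8 lineage genes 3 rose in deleted leukaemias, 1 fell and 5 did not pass (median 0.11), where 9.19% of all genes rose and 6.98% fell. The granule protease gene Gzmb went from 16.7, 21.6 and 29.7 to 2067, 2275 and 2392 (log2 5.88, adjusted p = 3.28e-06), Nkg7, another granule gene, from 23.8, 24.4 and 21.2 to 1733, 1204 and 1318 (log2 5.18, adjusted p = 6.34e-06), and the cathepsin gene Ctsw from 96.2, 83.8 and 95.4 to 627, 536 and 505 (log2 2.40, adjusted p = 3.78e-05). Gzmb and Nkg7 thus rose from below the control probe set, and the size of their fold depends on the constant added. These genes are also expressed by natural killer cells: of 3 markers of that cell type on the array, Klrd1 lay between 175 and 315 in deleted leukaemias and between 10.4 and 18.1 in wild-type leukaemias, and the other 2 did not exceed the control probe set on any leukaemia array. The summed level of the 3 ran from 37.3 to 46.3 in wild-type and from 201 to 341 in deleted leukaemias, and its part in the result was not tested. Tbx21, the T-bet gene, differed by −0.46 (adjusted p = 0.0322) but lay between 14.2 and 29.4 on all leukaemia arrays, under the control probe set. Its call was lost in 9 of 21 alternatives, with adjusted p up to 0.388, among them any one of 5 arrays left out and 64 added before the logarithm (−0.20, adjusted p = 0.0634). Of 6 CD4 lineage genes tested 1 rose, 0 fell and 5 did not pass (median −0.05), a share of risers to be read against the same 9.19%. It was Rora, a nuclear receptor gene of helper and innate lymphoid cells, which went from 26.5, 22.7 and 20.3 to 250, 271 and 328 (log2 2.93, adjusted p = 2.53e-05). Its wild-type values were under the control probe set, and the difference was 1.99 with 64 added and 3.56 with 1 added. Icos differed by 0.69 (adjusted p = 0.108) and passed with the block (adjusted p = 0.0238). In the thymocytes none of the genes on any of these lists passed between genotypes, where 0.0324% of all genes did.

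**Figure D4:**
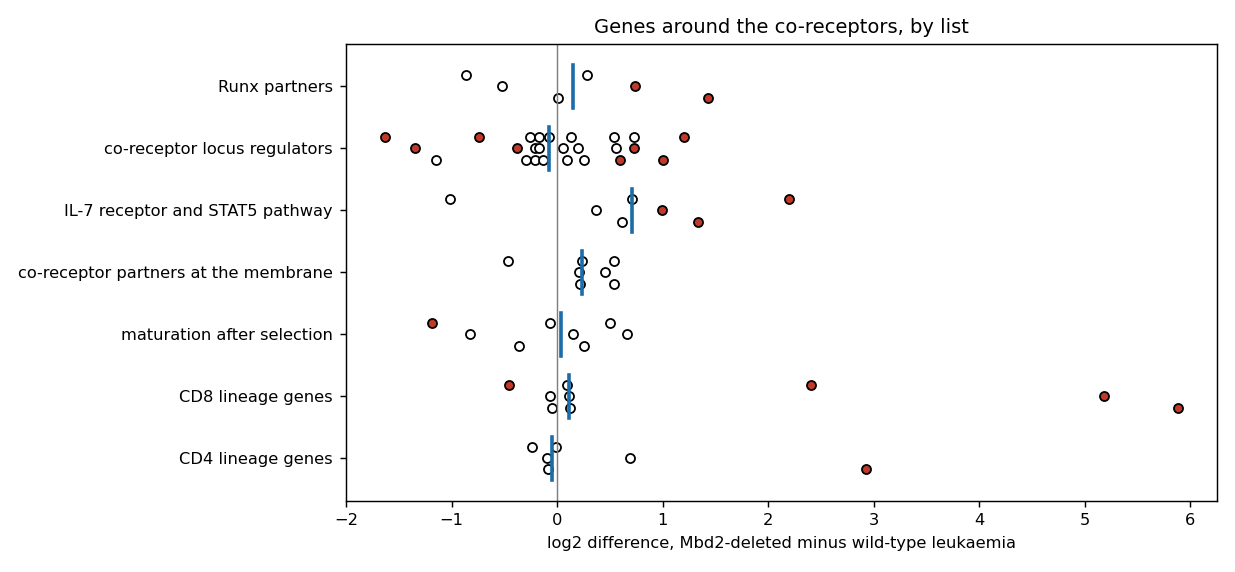
Log2 difference of each tested gene on 7 lists between Mbd2-deleted and wild-type leukaemias (points; filled, adjusted p under 0.05), with the median of the list (vertical bar). The filled points lie on both sides of 0 for the regulators of the co-receptor loci, with 4 each way, and no gene of the receptor complex is filled. Over all genes 9.19% were higher and 6.98% lower.

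Neutrophil genes also differed between the leukaemia groups. The summed level of 6 such genes ran from 879 to 1755 in wild-type leukaemias, 196 to 712 in deleted leukaemias and 136 to 386 in thymocytes, with S100a8 at 367 to 795, 43.2 to 278 and 11.8 to 152. Of the other lists of foreign cell types, B-cell genes on the array summed to 97.9 to 99.2 in wild-type and 113 to 123 in deleted leukaemias, monocyte genes to 210 to 232 and 172 to 182, dendritic-cell genes to 442 to 539 and 440.2 to 695, and erythroid genes to 105 to 148 and 127 to 160. Their part in the co-receptor differences was not tested. In thymocytes these sums were 223 to 259 for B-cell genes, with Cd79b the brightest, 190.4 to 330.2 for monocyte genes, 435 to 1116 for dendritic-cell genes and 52.7 to 69.3 for erythroid genes.

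The 3 protein-coding genes on each side of each of the 5 were read from the gene order of the GRCm38.p6 table. Cd8b1 and Cd8a lie next to each other, which leaves 24 neighbours, 22 of them tested. Of these 2 rose and 2 fell with Mbd2 deletion in leukaemia, shares near the 9.19% and 6.98% of all genes. Next to Cd4, Lag3, an inhibitory receptor gene related to it, went from 18, 28.2 and 21.1 to 79.4, 66.4 and 58.8 (log2 1.13, adjusted p = 0.00234), the opposite direction to Cd4. The wild-type values lay under the control probe set, and the Lag3 difference was 0.61 with 64 added and 1.58 with 1 added. Gpr162 on the other side did not pass (−0.48, adjusted p = 0.121), but did with the replicate block (adjusted p = 0.0435). Around the Cd8 genes, Smyd1, a methyltransferase-family gene known from muscle that lies on the Cd8b1 side, went from 102, 96.5 and 117 to 27.1, 19.1 and 19.4 (log2 −1.68, adjusted p = 0.000222). Its deleted values were under the control probe set, and the Smyd1 difference was −0.98 with 64 added and −2.23 with 1 added. Rmnd5a, adjoining Cd8a, went from 2168, 2141 and 1865 to 1211, 1427 and 769 (log2 −0.89, adjusted p = 0.0391), a call that was lost without any of the 3 wild-type arrays or deleted array 1 (adjusted p from 0.0641 to 0.14). Krcc1 and Gm1070, which stand between Smyd1 and Cd8b1, did not pass (0.70, adjusted p = 0.236, and 0.00, adjusted p = 0.988), though Krcc1 did with the block (adjusted p = 0.0132), as did Rnf103 on the far side of Rmnd5a (0.58, adjusted p = 0.0761 without and 0.00814 with the block). Near Runx3, Rsrp1 went from 711, 853 and 737 to 1339, 1594 and 1457 (log2 0.92, adjusted p = 0.00247), and the mean of its probe sets did not pass (0.38, adjusted p = 0.179). None of the 5 tested neighbours of Zbtb7b passed.

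Between wild-type leukaemias and wild-type thymocytes more of the Cd4 neighbours passed, but so did more of all genes. Lower calls made up 14.2% and higher calls 19.7% of all genes here, against 6.98% and 9.19% between the leukaemia genotypes. Gpr162 was at 37.2, 62.4 and 64 in leukaemias and at 564, 571 and 559 in thymocytes (log2 −3.07, adjusted p = 3.6e-05), and Ptms (−2.05, adjusted p = 0.00182), P3h3 (−1.50, adjusted p = 0.00148) and Lag3 (−1, adjusted p = 0.00146) were lower too. P3h3 and Lag3 lay under the control probe set in the wild-type leukaemias, and the P3h3 difference was −0.76 with 64 added and −2.28 with 1 added. Next to Cd8a, Rmnd5a (−1.73, adjusted p = 0.000875) and Rnf103 (−0.96, adjusted p = 0.0148) were lower, whereas Smyd1 was higher (0.97, adjusted p = 0.00116). Near Runx3, Rsrp1 (−1.51, adjusted p = 0.00053) and Syf2 (−0.62, adjusted p = 0.00669) were lower and Ncmap (0.69, adjusted p = 0.0236) was higher, but Ncmap lost its call when any one of 4 arrays was left out (adjusted p from 0.0629 to 0.0656). Near Zbtb7b, Cks1b was higher (0.87, adjusted p = 0.0004). In the thymocytes 0 of the 22 neighbours passed between genotypes by limma, where 0.0324% of all genes did.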

How the data were processed

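Total RNA (7 µg per sample, biotin-labelled cRNA) from 12 samples was hybridised to 1 array each, per the labels' protocols. The authors deposited linear intensities, 1 per probe set, from 3.07 to 21620; how these were summarized and normalized is not given in the sources used here. On the log2 scale the medians of the arrays lay between 5.71 and 5.79, and no further normalization was applied. The number of arrays limits the precision.

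Of 45101 probe sets 34945 were annotated to 1 gene, control probe sets left out, and 34741 matched a GRCm38.p6 gene table, which gave names and gene order. For each gene the probe set that was brightest on average was used. A gene was tested if it exceeded the 25th percentile on 3 or more arrays (15420, with 2773 left out), and further probe sets in a separate fit of 28372 probe sets. Differences of log2(value + 16) were tested with lmFit and eBayes of limma 3.58.1 (R 4.3.3; no intensity trend or robust variance), separately for each pair of groups and the change of effect in a fit of 12 arrays, and a difference passed at an adjusted p (Benjamini-Hochberg) under 0.05. Log2 differences are on this scale and understate changes of dim genes. Unless another test is named, p-values are limma's. The scripts were tested on simulated data. Figures were drawn with matplotlib 3.10.9 in Python 3.11.15.

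The members and the gene lists were chosen with earlier results of these data known. The text names the 5 genes at each probe set, Mbd2, from each list at most 4 genes that passed in the leukaemia comparison, taken by p (2 by p alone if fewer than 2 passed), the nearest 3 genes on each side and the 3 most similar genes. Other genes were named after their values were seen: Myb, Tcf12, Bcl6, Hdac1, Cbfb, Bcl11b, Tox2 and the T-lineage genes Ptcra, Thy1, Dntt, Cd3d, Cd3g, Themis and Rag2. Of the listed genes Runx2, Tcf7, Il2rg and Lck had no single-gene probe set and Foxp3 was not tested.

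Nothing in the labels says that replicates came from separate animals, so p-values reflect the spread among these arrays alone, which may be technical. Replicate numbers come from the sample titles. With group means taken off, arrays of equal number correlated at 0.40, 0.24 and 0.55 between the leukaemia genotypes. Between the wild-type groups they correlated at 0.45, 0.44 and 0.58. Both meet the rule for paired numbers, but equal numbers there also largely shared technical features. Leukaemias numbered 1 both had added-control signal, at Gapdh ratios of 0.969 and 0.964. Those numbered 3 both lacked it, at 2.48 and 2.98, and those numbered 2 differed. Pairing and this technical split cannot be told apart, and the labels state no pairing. The reported fits carry no block, and the blocked value stands beside a result where it changes the call. The values were −0.52, 0.14 and −0.49 between the thymocyte genotypes and −0.39, 0.09 and −0.43 between the deleted groups. The alternatives tried were quantile normalization, arrays centred on their 75th percentile, constants of 1 and 64, 2 other filters, the mean of the probe sets, trend and robust variance, weights per array, a replicate block, each array left out, all 12 arrays in each fit, and the added poly-A control signal as a block or a restriction. The Gapdh ratio, as a covariate or as a restriction to arrays under 2, was added after the data were seen.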

Additional observations from a re-analysis of the deposited data

Results flagged for a closer look

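The effect of Mbd2 deletion on the co-receptor genes differed between leukaemia cells and CD4+CD8+ thymocytes by the test of the difference itself, in limma's fit of all 12 arrays. The difference of the 2 effects was −5.34 (log2) for Cd8b1, −3.80 for Cd8a and −1.27 for Cd4. For Cd8b1 and Cd8a it passed under each alternative, with adjusted p up to 0.00545 and 0.00269. For Cd4 it did not pass on the arrays without added-control signal (−1.47, adjusted p = 0.0758) or on the arrays with a Gapdh ratio under 2 (−0.97, adjusted p = 0.0637), a subset in which each deleted group keeps 1 array. The thymocytes were gated on the proteins of these genes in both genotypes, and the part of the gate was not tested. Xist and Eif2s3y differed between the genotypes in the leukaemias only. The difference of effects thus cannot be told apart from the sex these genes mark.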

How the results depend on the processing

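Over the 20 to 26 alternatives run for each of the 5 genes and 5 comparisons, no called difference changed direction and leaving out single arrays changed no call of these genes. The exceptions to their calls were the following. In leukaemia Runx3 passed with array weights (0.63, adjusted p = 0.0462) and with the replicate number as a block (0.45, adjusted p = 0.0324). On the arrays without poly-A signal alone, Cd4 (−1.34, adjusted p = 0.130), Cd8a (−3.84, adjusted p = 0.0501) and Cd8b1 (−5.38, adjusted p = 0.0501) did not pass in leukaemia, nor Cd4 in the difference of effects (−1.47). That difference was −0.97 for Cd4 on arrays with a Gapdh ratio under 2, where each deleted group keeps 1 array. In the first of these subsets 1 wild-type leukaemia stood against 2 deleted ones and the number of genes called and of member probe sets lower fell to 0, and in the difference of effects they were 612 and 4.

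The number of all genes called in leukaemia, 2493, became 3871 with the replicate block, and from 1412 (without wild-type array 2) to 2429 when 1 array was left out. In the thymocytes 5 genes were called, and between 1 and 4 with 1 array left out, 11 after centring on the 75th percentile or with trend and robust variance, 8 with a constant of 1, 17 with array weights, 13 with all arrays in the fit, 10 with the Gapdh covariate, 1 with poly-A set blocked or without poly-A signal, and 0 with the replicate block or a Gapdh ratio under 2. The difference of effects was called for 1943 genes and for 2920 with array weights. Higher genes were 1417 of the 2493 calls in leukaemia, and 1355 of 3011 after centring on the 75th percentile. In the difference of effects they were 1212 of 1943 and 1024 of 2143. The block changed no other call of the 5 genes.

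With 64 added before the logarithm the ratio Cd8b1 over Cd8a differed by −1.45 between leukaemia genotypes and by −1.36 between the deleted cell types, and Zbtb7b over Runx3 by −1.82 and −2.21 between the cell types in wild type and deleted. With the mean of the probe sets the deleted cell types differed by −2.39 in Cd8b1 over Cd8a, the thymocyte genotypes by 0.26 in Cd4 over Cd8a, and the cell types by −1.26 and −1.44 in Zbtb7b over Runx3. The cause of these shifts was not tested. Signals near 35.3, those of Zbtb7b among them, cannot be told from background.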
